A study of Homo sapiens with 9 samples.

Results

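The genes described here are 10 cytokine genes of the IL-1 family and of epithelial cells (IL1A, IL1B, IL1RN, IL36G, IL36RN, IL18, IL33, IL6, IL32 and TSLP), taken by gene symbol from the 60605 genes of the expression table. Each of the 10 has 1 row. TE13, an established esophageal squamous cell carcinoma (ESCC) line of epithelial carcinoma cells, was transfected with control siRNA or with an siRNA to PARylator (siRNA.1 or siRNA.2), and poly(A)+ RNA was sequenced from 3 libraries per condition. PARylator is the long noncoding RNA LINC00885, which the study examined for its part in the survival of ESCC cells and in the DNA damage response. The siRNA conditions are transient knockdowns in 1 cell line, all 9 libraries come from that line, and the labels do not say whether the libraries of a condition came from separate cultures, so that the p-values measure the spread between these libraries.

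The IL-1 family is a group of secreted or released cytokines that act through paired receptors. IL-1α and IL-1β bind the receptor IL1R1, which then recruits IL1RAP and signals through MYD88 and IRAK kinases to NF-κB, whereas the antagonist encoded by IL1RN occupies IL1R1 without recruiting IL1RAP and IL1R2 is a decoy that binds IL-1 without signalling. IL-36γ and the antagonist encoded by IL36RN form the same kind of pair at a related receptor. IL-1β and IL-18 are made as precursors that caspase-1 cuts, while IL-1α and IL-33 are alarmins that squamous epithelia hold ready inside the cell. IL-6, a common target of IL-1 signalling, acts through IL6R and gp130, and TSLP is an epithelial cytokine that acts through CRLF2 and IL7R.

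Total counts on genes ranged from 15337917 to 17899074 in the control libraries, from 15374616 to 17762752 after siRNA.1 and from 19213164 to 22559998 after siRNA.2. The counts of LINC00885 were 6, 7 and 12 in the control libraries, 4, 5 and 2 after siRNA.1, and 2, 0 and 4 after siRNA.2. The 14 squamous epithelium markers were all detected above the filter, and their summed level was 1559 to 1593 FPKM (counts scaled by exonic length and by the total of the library) in the control libraries, 1527 to 1609 after siRNA.1 and 1421 to 1454 after siRNA.2. Of these markers 4 rose and 7 fell with each siRNA (adjusted p under 0.05 from edgeR). Over all genes tested, 30.2% passed with siRNA.1 and 30.9% with siRNA.2. Among the markers, the falls with the largest mean were those of KRT5 and KRT15, basal squamous keratins (by 1.86 and 1.36, and by 1.48 and 1.00 on the log2 scale), and of SFN, an epithelial 14-3-3 protein (by 0.79 and 0.75). The 4 that rose, named after their values were seen, went the other way. They were KRT6A (by 0.34 and 0.58), EPCAM (0.44 and 0.45), DSG3 (0.58 and 0.27) and KRT18 (0.37 and 0.15). Mitochondrial genes took 7.46% to 7.66% of the counts in the control libraries, 4.99% to 5.06% after siRNA.1 and 5.54% to 5.56% after siRNA.2. The part of this shift in the results was not tested.

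The genes IL1A, IL1B, IL36G, IL36RN and IL1RN lie together on chromosome 2 of GRCh38, over 360.1 kb between positions 112773925 and 113134016. In that stretch IL1A (chr2:112773925-112784493) and IL1B (chr2:112829751-112836816) are on the minus strand, followed on the plus strand by IL36G (chr2:112973203-112985658), IL36RN (chr2:113058638-113065382) and IL1RN (chr2:113107214-113134016). IL18 is at chr11:112143253-112164096 on the minus strand. On the plus strand are IL33 (chr9:6215786-6257983), IL6 (chr7:22725884-22732002), IL32 (chr16:3065297-3082192) and TSLP (chr5:111070062-111078026). All are annotated as protein-coding. In GENCODE release 44, 9.91% of the exon bases of IL6 (428 bases) overlap other genes, among them the antisense IL6-AS1. So do 5.4% of those of TSLP (an antisense lncRNA) and 4.02% of those of IL32 (RNU1-125P). The sources used here do not say whether counting used strand, so reads in those stretches are uncertain. The exonic length behind the IL6 FPKM was 2069 bases, shorter than its exons in that release. The 9.91% may therefore not describe the IL6 exons that were counted.

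RefSeq start sites of 9 of the 10 genes were matched to promoter windows, and IL18 was not. The windows run from 250 bases before the start to 50 after it. The windows of 3 genes are shown because their genes passed the test in the same direction with both siRNAs: IL6 (higher with both siRNAs), IL1A (higher with both) and IL1RN (lower with both). They lie at chr7:22726950-22727249 on the plus strand, chr2:112784444-112784743 on the minus strand and chr2:113117721-113118020 on the plus strand (GRCh38.p14), each read 5′ to 3′ along its gene. Capitals mark matches to 3 motifs searched on both strands, GGNNTTTCC for NF-κB, TGANTCA for AP-1 and TTGCNNAA for C/EBP, letters that were chosen after the promoters had been seen.
IL6: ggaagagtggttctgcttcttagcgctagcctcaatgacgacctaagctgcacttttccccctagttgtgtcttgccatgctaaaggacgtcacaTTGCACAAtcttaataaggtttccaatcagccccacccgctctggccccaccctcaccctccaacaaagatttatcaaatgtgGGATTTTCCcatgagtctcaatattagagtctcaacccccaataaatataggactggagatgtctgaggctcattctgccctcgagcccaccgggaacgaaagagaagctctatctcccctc
IL1A: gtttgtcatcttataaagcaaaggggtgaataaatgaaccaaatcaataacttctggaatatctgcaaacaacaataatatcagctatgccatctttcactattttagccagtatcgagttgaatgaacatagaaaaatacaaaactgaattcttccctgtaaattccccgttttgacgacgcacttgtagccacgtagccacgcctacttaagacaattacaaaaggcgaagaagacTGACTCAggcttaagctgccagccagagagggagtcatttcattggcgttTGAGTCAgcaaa
IL1RN: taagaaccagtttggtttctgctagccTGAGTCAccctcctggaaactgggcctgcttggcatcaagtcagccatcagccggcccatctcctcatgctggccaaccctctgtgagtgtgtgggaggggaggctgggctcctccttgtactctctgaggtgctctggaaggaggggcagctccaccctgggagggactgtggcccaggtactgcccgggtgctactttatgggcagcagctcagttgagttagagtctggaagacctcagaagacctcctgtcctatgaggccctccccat
In the IL6 window the first capitals are a C/EBP match starting 155 bases before the start site and the later ones an NF-κB match starting 72 bases before it. Both capitals of the IL1A window are AP-1 matches, the first starting 12 bases before the start site and the second after it. IL1A has 2 listed starts, and in the window of the other these matches start 105 and 55 bases before it. The IL1RN window has 1 AP-1 match, 223 bases before the start. Of all 35116 promoter windows, 6.26% held the NF-κB letters, 7.71% the AP-1 letters and 10.46% the C/EBP letters. IL1RN has 3 listed starts, and the windows of the other two held GGTATTTCC, an NF-κB match that the printed one lacks. A window of IL32 held 2 NF-κB matches (GGAGTTTCC and GGACTTTCC, 98 and 68 bases before the start), 1 of TSLP held 1, and that of IL1B held a C/EBP match (TTGCAAAA, 215 bases before its start). These matches describe the letters in the windows and do not show that a factor was bound.

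In TE13 cells with control siRNA, IL1A was the highest of the 10 cytokine genes, with a mean of 77.2 ± 6.63 FPKM (SD, n = 3). IL1B (58.7 ± 5.85 FPKM), IL32 (37.1 ± 0.332), IL18 (32.1 ± 1.71) and IL6 (19.2 ± 3.11) followed. The antagonist gene IL1RN stood at 8.0 ± 0.696 FPKM, IL36G at 1.84 ± 0.498, IL36RN at 0.833 ± 0.121, TSLP at 0.190 ± 0.0700, and IL33 was listed at 0. The ranges of neighbours in this order did not overlap. With either siRNA the order was the same except that IL6 stood above IL32 and IL18, in the third place, and again no neighbouring ranges overlapped.

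**Figure D1:**
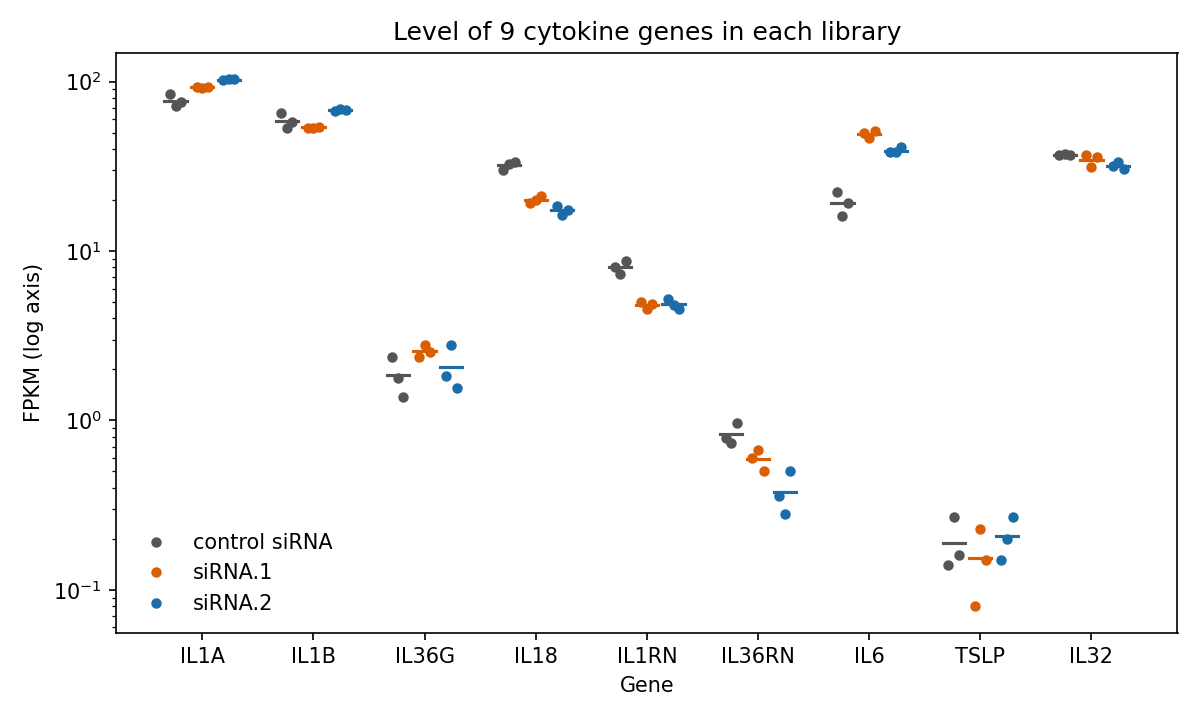
Level of the 9 cytokine genes other than IL33 in each library, in FPKM on a log axis, with 1 point per library and a line at the mean of 3 libraries. The siRNA libraries of IL6 lie above all control libraries, and those of IL18, IL1RN and IL36RN lie below them.

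TE13 cells transfected with either PARylator siRNA had more IL6 and IL1A mRNA and less IL1RN and IL18 mRNA than those with control siRNA. IL6 was 2.50-fold higher after siRNA.1 and 2.02-fold higher after siRNA.2. Of the 9 genes that passed the filter on low values (0.1 FPKM or more on average), which left out IL33, 5 had an adjusted p under 0.05 from edgeR after siRNA.1, beside 30.2% of all 21397 genes tested. The 5 were 2 higher genes (15.0% of all genes were higher) and 3 lower genes (15.2%). With siRNA.2 it was 7 of 9, beside 30.9%, of which 3 were higher (15.8% of all genes) and 4 lower (15.1%). Among genes at higher levels a larger share passed. In a fit of the 12532 genes that averaged 1 FPKM or more, 5819 passed after siRNA.1 and 5913 after siRNA.2. That fit held 7 of the 9 cytokine genes, and 5 of them passed after siRNA.1 and 6 after siRNA.2. The median log2 fold change of the 9 was -0.16 after siRNA.1 and 0.13 after siRNA.2, against 0.00 over all genes in either comparison. These comparisons share the control libraries. In bulk RNA, fewer cells that express a gene and less RNA per cell cannot be told apart.

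**Figure D2:**
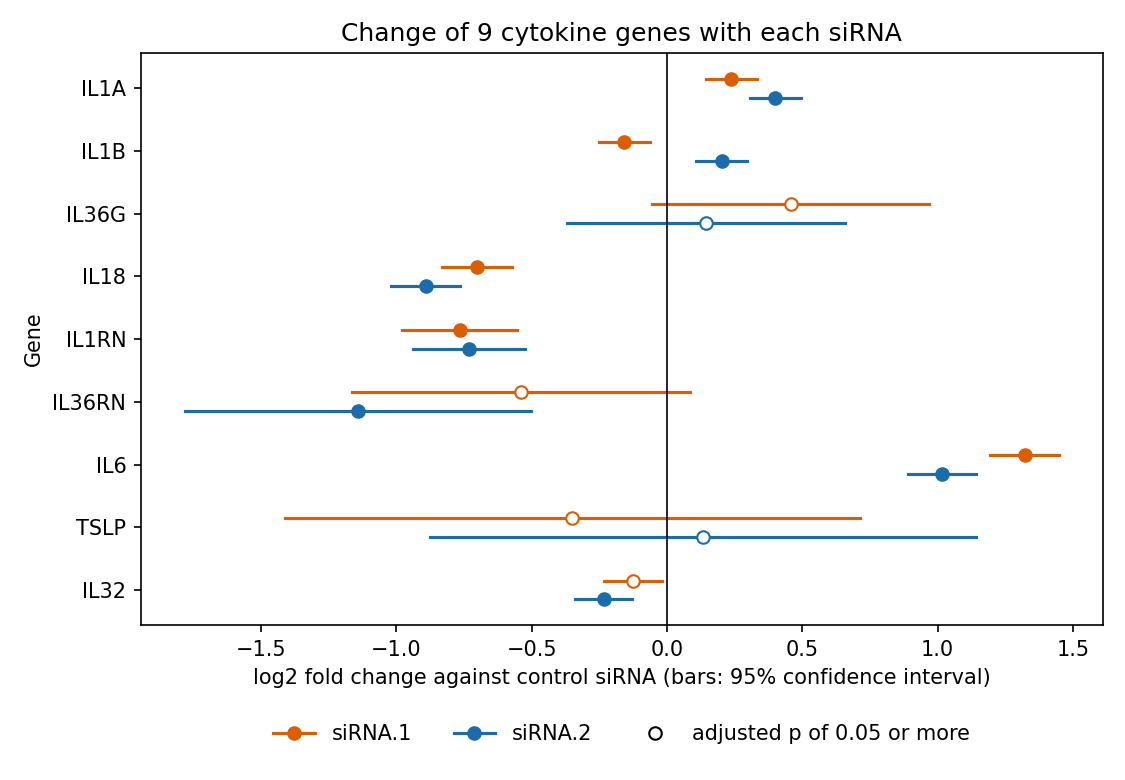
Log2 fold change of each of the 9 cytokine genes against control siRNA from edgeR, with 95% confidence intervals and open circles where the adjusted p was 0.05 or more. IL6 and IL1A lie to the right of 0 with both siRNAs, IL18 and IL1RN to the left, and IL1B on opposite sides.

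Among the agonists, IL1A had 84.59, 71.75 and 75.29 FPKM in the control libraries, 93.36, 92.00 and 92.77 after siRNA.1, and 101.97, 102.91 and 103.07 after siRNA.2. Every siRNA library lay above every control library, and the siRNA.2 libraries above the siRNA.1 libraries. The log2 fold change was 0.24 after siRNA.1 (SE 0.048, adjusted p = 7.30e-06 from edgeR) and 0.40 after siRNA.2 (SE 0.048, adjusted p = 1.26e-15 from edgeR).

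IL1B, the neighbour of IL1A on the same strand, was higher after siRNA.2 and lower after siRNA.1. It had 64.94, 53.36 and 57.69 FPKM in the control libraries, 53.34, 53.56 and 53.89 after siRNA.1, and 66.64, 68.93 and 68.31 after siRNA.2. The siRNA.2 libraries were above all others, whereas the siRNA.1 range overlapped the lowest control library. With siRNA.2 IL1B rose by 0.20 on the log2 scale (SE 0.047, adjusted p = 0.000142 from edgeR). With siRNA.1 it fell by 0.16 (SE 0.048, adjusted p = 0.00520 from edgeR), a call that was lost with limma (adjusted p = 0.173) and without control replicate 1 (-0.08, adjusted p = 0.302 from edgeR).

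IL1RN, the receptor antagonist, fell with both siRNAs. Its counts were 400, 368 and 503 in the control libraries, 287, 226 and 275 after siRNA.1, and 336, 300 and 332 after siRNA.2, and its levels 8.05, 7.28 and 8.67 FPKM, then 4.99, 4.54 and 4.86, then 5.24, 4.82 and 4.54. All siRNA libraries lay below the control libraries, and the ranges of both siRNAs overlapped. The log2 fold change was -0.77 after siRNA.1 (SE 0.108, adjusted p = 2.58e-11 from edgeR) and -0.73 after siRNA.2 (SE 0.106, adjusted p = 7.45e-11 from edgeR).

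The agonists were then set against their antagonist within each library. IL1A had 8.68 to 10.5 times the FPKM of IL1RN in the control libraries, 18.7 to 20.3 times after siRNA.1 and 19.5 to 22.7 times after siRNA.2. The log2 ratio of IL1RN to IL1A went from -3.27 ± 0.14 (SD, n = 3) to -4.27 ± 0.0599 and -4.40 ± 0.112, differences of -1.0 and -1.13 (two-sided exact permutation p = 0.1 for each, the smallest that 3 against 3 libraries can give, and 0.1 after adjustment over 6 comparisons). For IL1B the span was 6.65 to 8.07 times the FPKM of IL1RN in the control libraries, 10.7 to 11.8 times after siRNA.1 and 12.7 to 15.0 times after siRNA.2. The log2 ratio of IL1RN to IL1B differed by -0.61 and -0.93 between the group means, again with no overlap of the libraries. Its exact permutation p was 0.1 with each siRNA, which does not pass 0.05.

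The IL-36 pair was expressed at far lower levels. IL36G had counts of 50, 38 and 34 in the control libraries, 58, 59 and 61 after siRNA.1, and 50, 73 and 48 after siRNA.2. Its levels were 1.38 to 2.37 FPKM in the control libraries, just below the 2.38 to 2.79 FPKM after siRNA.1 and overlapping the 1.55 to 2.77 FPKM after siRNA.2. The log2 fold change was 0.46 after siRNA.1 (95% confidence interval -0.05 to 0.97, adjusted p = 0.191 from edgeR) and 0.14 after siRNA.2 (-0.37 to 0.66, adjusted p = 0.751 from edgeR), so that no change was detectable at this depth.

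IL36RN, the antagonist of the pair, had counts of 39, 37 and 56 in the control libraries, 34, 33 and 28 after siRNA.1, and 23, 17 and 36 after siRNA.2. Its levels were 0.79, 0.74 and 0.97 FPKM, then 0.60, 0.67 and 0.50, then 0.36, 0.28 and 0.50, with every siRNA library below the control libraries. It fell by 1.14 on the log2 scale after siRNA.2 (SE 0.326, adjusted p = 0.00233 from edgeR). With siRNA.1 the value was -0.54 (95% confidence interval -1.16 to 0.08, adjusted p = 0.211 from edgeR), and the difference between the siRNAs was -0.60 (-1.26 to 0.06, adjusted p = 0.294 from edgeR). IL36G had 1.42 to 3.00 times the FPKM of IL36RN in the control libraries, 3.97 to 5.08 times after siRNA.1 and 3.10 to 9.89 times after siRNA.2. The log2 ratio of IL36RN to IL36G differed by -1.01 and -1.31 between the means (exact permutation p = 0.1 for each). The siRNA libraries did not overlap the control libraries, but the gap to siRNA.2 was narrow (3.00 against 3.10 times). The log2 ratio also spread widely inside the control and siRNA.2 libraries (SD 0.553 and 0.840), on few counts.

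**Figure D3:**
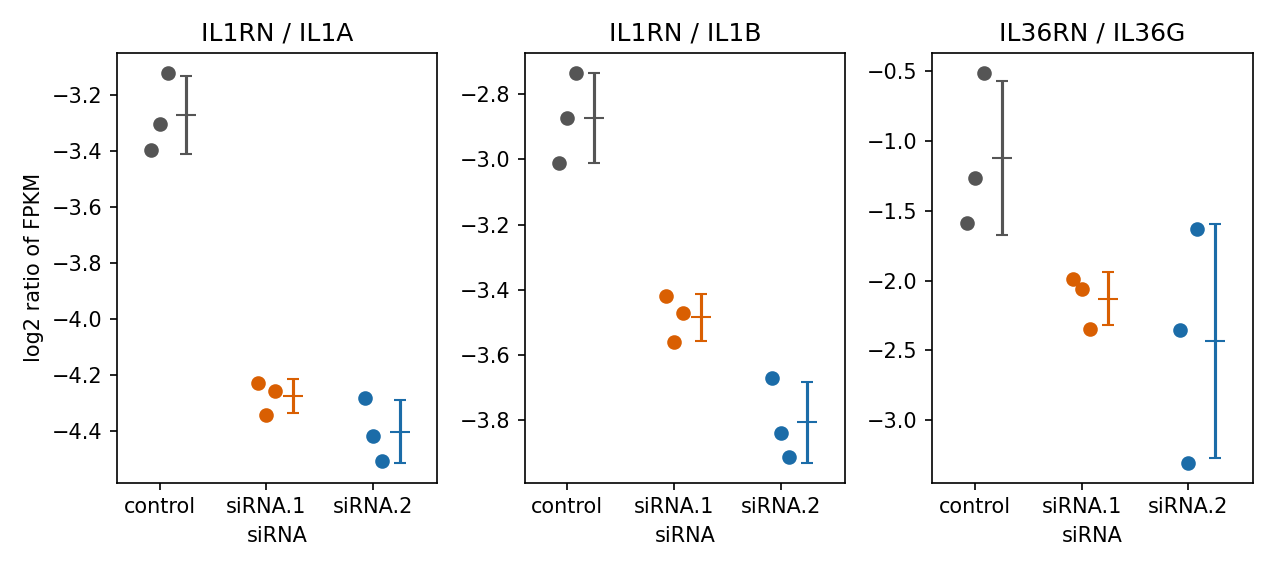
Log2 ratio of antagonist to agonist FPKM in each library for IL1RN to IL1A, IL1RN to IL1B and IL36RN to IL36G, with 1 point per library and the mean ± SD of 3 libraries beside the points. Every siRNA library lies below every control library in all 3 panels, by the widest margin for IL1RN to IL1A.

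IL18, whose product induces interferon-γ in lymphocytes, fell with both siRNAs. It had 30.16, 32.73 and 33.39 FPKM in the control libraries, 19.32, 19.97 and 21.04 after siRNA.1, and 18.50, 16.34 and 17.48 after siRNA.2. The 3 groups did not overlap, and the siRNA.2 libraries were the lowest. Fold changes were 0.615 after siRNA.1 (log2 -0.70, SE 0.066, adjusted p = 1.14e-24 from edgeR) and 0.539 after siRNA.2 (log2 -0.89, SE 0.066, adjusted p = 6.89e-40 from edgeR).

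IL33 was at the limit of detection, with 0 counts in each control library, 1, 0 and 0 after siRNA.1, and 3, 0 and 1 after siRNA.2. A level of 3 counts corresponds to 0.0409 to 0.0601 FPKM in these libraries, so no fold change is given.

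IL6 had counts of 709, 520 and 712 in the control libraries, 1816, 1469 and 1849 after siRNA.1, and 1567, 1525 and 1911 after siRNA.2. In FPKM these were 22.34, 16.12 and 19.23, then 49.41, 46.18 and 51.19, then 38.25, 38.36 and 40.94. All siRNA libraries lay above all control libraries, and the siRNA.1 libraries above those of siRNA.2. The log2 fold change was 1.32 after siRNA.1 (SE 0.064, adjusted p = 7.94e-91 from edgeR) and 1.02 after siRNA.2 (SE 0.064, adjusted p = 7.54e-54 from edgeR). Without any 1 library it stayed between 1.21 and 1.44 after siRNA.1 and between 0.91 and 1.13 after siRNA.2.

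IL32, a proinflammatory cytokine that belongs to no other cytokine family, moved little. It had 36.90, 37.46 and 36.87 FPKM in the control libraries, 36.63, 31.27 and 35.80 after siRNA.1, and 31.67, 33.30 and 30.38 after siRNA.2. Every siRNA library lay below every control library, those of siRNA.1 by a narrow gap apart from replicate 2. It fell by 0.23 on the log2 scale after siRNA.2 (SE 0.054, adjusted p = 0.000106 from edgeR). With siRNA.1 the value was -0.13 (SE 0.054, adjusted p = 0.0643 from edgeR), and without siRNA.1 replicate 1 it was -0.17 (adjusted p = 0.0166 from edgeR).

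TSLP had counts of 9, 18 and 12 in the control libraries, 6, 15 and 11 after siRNA.1, and 13, 16 and 26 after siRNA.2, and all groups overlapped. Its log2 fold change was -0.35 after siRNA.1 (95% confidence interval -1.41 to 0.71) and 0.13 after siRNA.2 (-0.88 to 1.14), intervals too wide to show a change of either sign.

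The spread between control libraries ran together for IL1A, IL1B and IL6. Control replicate 2 was the lowest of the 3 control libraries for each of them, and also for IL1RN and IL36RN. The deviations of log2 expression from the group means correlated across the 9 libraries with r = 0.98 for IL1A with IL1B, 0.914 for IL1A with IL6 and 0.918 for IL1B with IL6. These pairs are named because their r was the highest among the cytokine genes that averaged 1 FPKM or more. Over the 6 siRNA libraries alone the values were 0.473, 0.681 and 0.265, so the pattern rested on the control libraries. The points of each pair share library and depth, and these r values are a description.

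Between the siRNAs, 4 of the 9 genes differed, beside 12.2% of all genes, with 2 higher after siRNA.2 (6.10% of all genes) and 2 lower (6.07%). IL1B was 0.36 higher on the log2 scale after siRNA.2 than after siRNA.1 (SE 0.048, adjusted p = 5.56e-12 from edgeR), the only one of the 4 that also passed with limma (adjusted p = 0.0107). IL1A was 0.16 higher (adjusted p = 0.00724 from edgeR). IL6 differed by -0.30 (adjusted p = 1.25e-05 from edgeR) and IL18 by -0.19 (adjusted p = 0.0435 from edgeR). IL1RN differed by 0.03 with a 95% confidence interval of -0.18 to 0.25. IL32 differed by -0.11 (adjusted p = 0.223 from edgeR).

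Genes with the most similar profile were sought for the 7 cytokine genes that averaged 1 FPKM or more, by the Pearson correlation of log2(CPM + 1) over the 9 libraries among 11868 genes. The most similar to IL6 was ATF3, a stress-induced transcription factor (r = 0.993), followed by H2AW and ZNF350 (0.993 and 0.992). For IL1A they were LINC02582 (0.990), DMC1 and ASAH2B (0.986 and 0.985), and for IL1B TM9SF3, GNG4 and BUB1 (0.948, 0.947 and 0.946). Near IL1RN were TMEM106C and the mitochondrial ribosomal RNA MT-RNR2 (0.984 each). IL18 was nearest to DSTN, an actin-severing protein (0.990), SEL1L and ETS1 (0.988 each). IL32 was nearest to TRAPPC6A, SEPTIN10 and MB21D2 (0.952, 0.945 and 0.945), and IL36G to TMEM234, TADA2B and ZBTB17 (0.939, 0.929 and 0.923). The 9 libraries fall into 3 groups, and these r values are a description.

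Of 10 receptors and soluble binding proteins, 7 were tested. After siRNA.1 4 rose and 2 fell (median log2 fold change 0.37), and after siRNA.2 3 rose and 1 fell (median 0.17), where 30.2% and 30.9% of all genes tested passed and the median of all genes was 0.00. The decoy receptor IL1R2 rose most: it had 3.18, 3.8 and 3.33 FPKM in the control libraries, 10.62, 11.02 and 11.95 after siRNA.1, and 10.15, 11.58 and 9.89 after siRNA.2. No siRNA library came near the control libraries. Its log2 fold change was 1.68 after siRNA.1 (SE 0.105, adjusted p = 6.63e-55 from edgeR) and 1.61 after siRNA.2 (SE 0.105, adjusted p = 4.61e-51 from edgeR). So the mRNA of the decoy receptor rose in the same libraries in which the mRNA of the antagonist IL1RN fell.

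IL1RL1, the IL-33 receptor, rose by 0.56 and 0.64 on the log2 scale (adjusted p = 0.0225 and 0.00600 from edgeR), although control replicate 1 (1.00 FPKM) lay within the siRNA libraries (0.85 to 1.16 FPKM). IL18R1, a chain of the IL-18 receptor, rose by 0.42 and 0.47 (adjusted p = 0.0291 and 0.00979 from edgeR). The signalling chains of the IL-1 receptor, named here after their values were seen, went the other way. IL1RAP fell by 0.30 after siRNA.1 and 0.28 after siRNA.2 (adjusted p = 0.00281 and 0.00416 from edgeR). IL1R1 fell by 0.38 after siRNA.1 (adjusted p = 0.0153 from edgeR), and after siRNA.2 its value was -0.15 (adjusted p = 0.429 from edgeR). IL18RAP, the partner chain of IL18R1, had 0 to 5 counts per library, and IL1RL2, the IL-36 receptor chain, 0 to 2. Both were named after their values were seen, and neither was tested.

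Of 4 further IL-1 family ligands, IL37 alone passed the filter on low values. This anti-inflammatory member had counts of 2, 2 and 11 in the control libraries, 33, 20 and 23 after siRNA.1, and 9, 16 and 15 after siRNA.2, and it rose after siRNA.1 (log2 fold change 2.26, SE 0.562, adjusted p = 0.000380 from edgeR). With siRNA.2 the value was 1.08 (SE 0.594, adjusted p = 0.170 from edgeR).

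Of 18 genes of inflammasomes and cytokine processing, 13 were tested. After siRNA.1 3 rose and 4 fell (median 0.01), and after siRNA.2 1 rose and 4 fell (median -0.12), the latter share near the 30.9% of all genes that passed (30.2% after siRNA.1). AIM2, a cytosolic DNA sensor that assembles an inflammasome, had 8.94 to 9.14 FPKM in the control libraries, 15.98 to 17.25 after siRNA.1 and 15.72 to 18.62 after siRNA.2. It rose by 0.84 and 0.94 on the log2 scale (adjusted p = 1.59e-16 and 2.64e-21 from edgeR). CAPN1, a calpain (the protease family that can cut the IL-1α precursor), fell by 0.35 and 0.42, and GSDME, a pore-forming gasdermin, by 0.37 and 0.36. The adaptor PYCARD, named after its values were seen, had 0 to 3 counts in every library and was not tested.

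Of 18 genes of IL-1 receptor signalling, all were tested. After siRNA.1 6 rose and 4 fell (median 0.11), and after siRNA.2 5 rose and 5 fell (median -0.09), beside 30.2% and 30.9% of all genes. PELI1, a ubiquitin ligase of the IRAK complex, rose by 0.53 and 0.57, and NFKBIZ, an IL-1-induced co-activator of IL6 transcription, by 0.47 and 0.55. IRAK4, the kinase that MYD88 recruits, fell by 0.56 and 0.46. MYD88, named after its values were seen, rose by 0.25 after siRNA.1 and fell by 0.45 after siRNA.2, and the difference of siRNA.2 from siRNA.1 was -0.70 (adjusted p = 2.86e-20 from edgeR).

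The 10 receptor and signalling genes of IL-6 and TSLP were all tested. Of them 2 rose and 2 fell after siRNA.1 (median 0.05), a share near the 30.2% of all genes that passed, and 1 rose and 5 fell after siRNA.2 (median -0.17, with 30.9% of all genes passing). IL7R, a chain of the TSLP receptor, rose by 0.56 and 0.22. CRLF2, the other chain, named after its values were seen, had 1 to 16 counts per library and passed with neither siRNA. SOCS3, a feedback inhibitor that IL-6 signalling induces through STAT3, fell by 0.22 and 0.35 (adjusted p = 0.0246 and 6.59e-05 from edgeR) in the libraries in which IL6 mRNA rose. IL6R had 3.62, 3.11 and 3.41 FPKM in the control libraries, 4.33, 4.33 and 4.42 after siRNA.1, and 2.31, 2.40 and 1.99 after siRNA.2. It rose by 0.34 after siRNA.1 (adjusted p = 0.00388 from edgeR) and fell by 0.61 after siRNA.2 (adjusted p = 8.72e-08 from edgeR), and the difference of siRNA.2 from siRNA.1 was -0.95 (SE 0.103, adjusted p = 8.40e-18 from edgeR).

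Of 21 other epithelial cytokines, 18 were tested. Of them 3 rose and 4 fell after siRNA.1 (median -0.17), and 4 rose and 4 fell after siRNA.2 (median -0.08), shares not far above the 30.2% and 30.9% of all genes that passed. IL24, a member of the IL-10 family, had 37.29, 33.55 and 35.60 FPKM in the control libraries, 78.60, 79.34 and 81.88 after siRNA.1, and 67.18, 76.98 and 81.53 after siRNA.2. It rose by 1.14 and 1.07 on the log2 scale (adjusted p = 5.10e-95 and 1.01e-84 from edgeR), close to IL6 in size. LTB, the membrane anchor of the lymphotoxin heterotrimer, fell by 1.58 and 1.05, and IL23A, a subunit of IL-23, by 1.14 and 1.27.

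**Figure D4:**
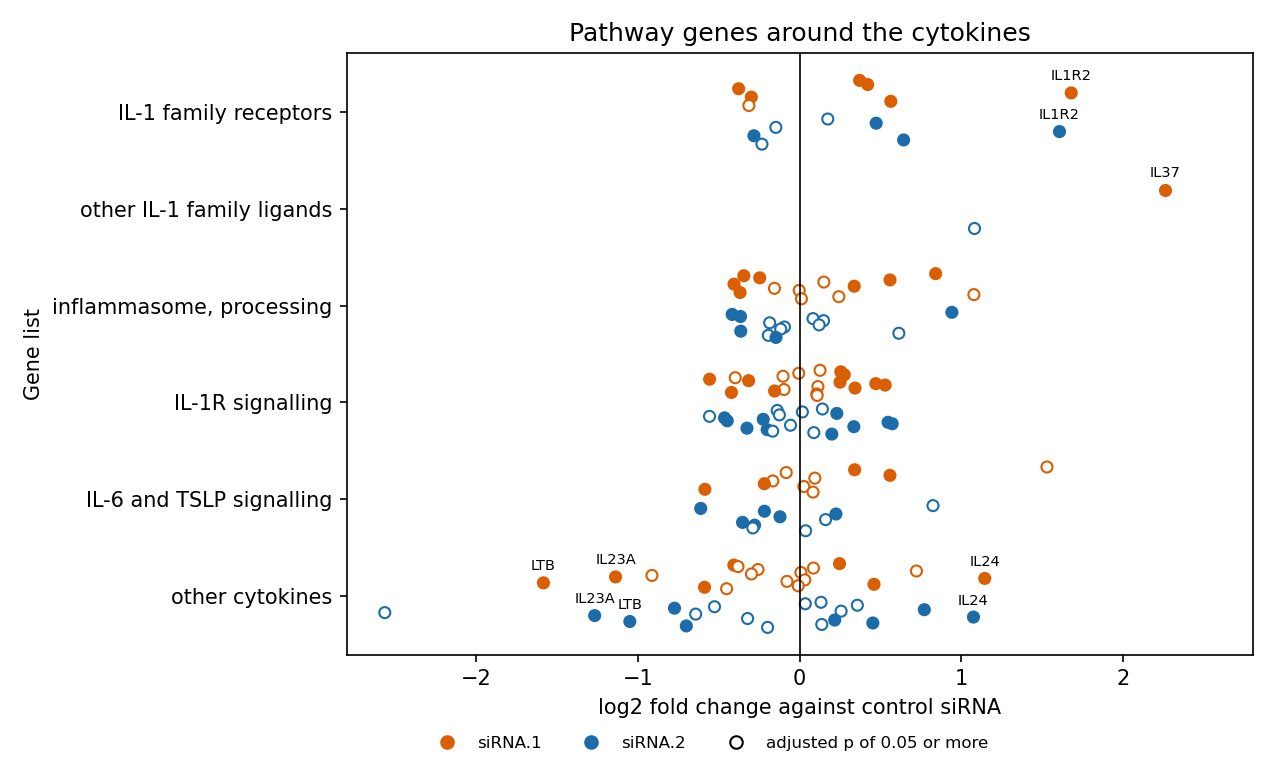
Log2 fold change against control siRNA of each tested gene of 6 lists around the cytokines, with 1 point per gene and siRNA and open circles where the adjusted p was 0.05 or more. Genes with a passing change of over 1 on the log2 scale in either direction are labelled, among them IL1R2 and IL24 on the right and LTB and IL23A on the left, and most other points lie within 1 of 0.

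Markers of other cell types were low and did not stay level. The 12 blood cell markers summed to 5.91 to 6.85 FPKM in the control libraries, 8.52 to 9.80 after siRNA.1 and 8.32 to 9.61 after siRNA.2. Of the 8 that were tested, 5 rose and 1 fell with each siRNA. Beside this and the later marker lists, 30.2% of all genes tested passed with siRNA.1 (15.0% higher, 15.2% lower). With siRNA.2 it was 30.9% (15.8% higher, 15.1% lower). LYZ (lysozyme) rose from 0.317 ± 0.219 FPKM (SD, n = 3) to 2.79 ± 0.286 after siRNA.1 and 3.08 ± 0.274 after siRNA.2. FCER1G, an Fc receptor chain of myeloid cells, rose from 0.190 ± 0.106 to 1.07 ± 0.0513 and 1.47 ± 0.204 FPKM. LAPTM5, the most abundant of the list in the control libraries and named after its values were seen, fell from 4.95 ± 0.131 to 3.00 ± 0.556 and 2.40 ± 0.163 FPKM. PTPRC, which defines leukocytes, had counts of 4, 7 and 4 in the control libraries, 18, 19 and 35 after siRNA.1, and 29, 22 and 34 after siRNA.2, a rise of 2.15 and 2.12 on the log2 scale, whereas CD3E, CD2, MS4A1 and CD79A had 0 to 4 counts in each library. The fibroblast markers (8 genes, 2.27 to 2.52 FPKM in the control libraries) summed to 1.5 to 1.65 after siRNA.1 and 1.5 to 1.78 after siRNA.2, and of the 2 tested COL1A1, a collagen, fell by 0.55 and 0.52 on the log2 scale. The endothelial markers (6 genes, 1.20 to 1.56 FPKM) summed to 0.71 to 1.00 and 0.50 to 0.57. Of both that were tested, VWF, a clotting protein, had log2 fold changes of -2.15 and -2.01 and CDH5, a cadherin of endothelial junctions, of -0.58 and -1.63, all past the threshold. The blood cell sum was higher in the libraries in which IL6 and IL1A were higher, with LYZ adding the most to the difference and LAPTM5 going the other way. The part of these markers in the results was not tested.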

How the data were processed

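Poly(A)+ RNA of 9 TE13 libraries (3 per condition, grouped by their titles) was sequenced. Per the methods, reads were aligned with STAR to GRCh38 and counted with featureCounts. Versions, annotation release and strandedness are not given in the sources used here. The authors deposited raw counts per gene and FPKM, which were recomputed from the counts to within 0.005.

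Counts were tested with edgeR 4.0.16 (TMM, quasi-likelihood, R 4.3.3) with all 9 libraries fitted together, on the 21397 genes averaging 0.1 FPKM or more, and p-values were adjusted by Benjamini-Hochberg (threshold 0.05). SEs were derived from the log2 fold change and its F statistic. On simulated data for siRNA.1 against control siRNA (21397 genes), 67.2% of genes changed 1.5-fold, 73.1% changed 2-fold and 100% changed 4-fold were recovered. Only 67, 67 and 66 genes were changed, a far smaller part of all genes than passed in the data. Genes with few counts were not drawn, so these shares do not cover them. Ratios of FPKM were tested by exact permutation over libraries. limma 3.58.1 on log2(FPKM + 0.1), DESeq2 1.42.0 (the tool of the study), other scalings and filters, a replicate block and each library left out were alternatives. Libraries of a condition differed by a chi-square per degree of freedom of 2.73 to 4.40, more than counting error alone would give. Each was counted as 1 sample, although this spread does not show that they came from separate cultures.

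The cytokine genes and lists were chosen with earlier results of these data known. All 10 cytokine genes are named. Of the genes most similar to each of them, up to 3 are named, and 1 is not reported here. Of each list, up to 3 genes, those with the largest mean change among those passing with both siRNAs are named. One listed symbol was not found in the table. Counting error is the limit for genes with few counts.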

Additional observations from a re-analysis of the deposited data

Results flagged for a closer look

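The cytokine genes IL1B, IL1A, IL6 and IL18 had effects that differed between the siRNAs by edgeR's test of siRNA.2 against siRNA.1. IL1B differed by 0.36 on the log2 scale, with its change against control siRNA of opposite sign, -0.16 with siRNA.1 and 0.20 with siRNA.2. IL1A differed by 0.16, between rises of 0.24 and 0.40. IL6 differed by -0.30, between rises of 1.32 with siRNA.1 and 1.02 with siRNA.2. IL18 differed by -0.19, between falls of 0.70 and 0.89.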

How the results depend on the processing

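Of 399 values of single cytokine genes under alternatives, 374 kept their direction and their side of the threshold, 17 lost the call, 2 gained it and 6 changed sign. The 6 were all of genes without a call, each with 1 library left out: IL36G with siRNA.2 became -0.03 without control replicate 3 and -0.13 without siRNA.2 replicate 2 (up to 0.37 otherwise), TSLP with siRNA.2 became -0.04 without control replicate 1 and -0.12 without siRNA.2 replicate 3 (up to 0.47), and IL1RN between the siRNAs became -0.01 without siRNA.1 replicate 2 or siRNA.2 replicate 1 (-0.0078 and -0.0102, up to 0.0769). The 4 genes that differed between the siRNAs became 1 with limma at either pseudocount (0.1 or 1) and 2 to 4 with each library left out, the lowest being 2 without siRNA.2 replicate 3. The adjusted p between the siRNAs for IL1A was 0.144 and 0.148 with limma and 0.0528 without siRNA.2 replicate 3, and that for IL6 was 0.105 with limma at both pseudocounts, and the cause was not tested. IL18 between the siRNAs lost its call in 9 of 15 alternatives, with an adjusted p from 0.0248 to 0.246 over all of them. Over all genes limma called 1437 between the siRNAs (1414 with a pseudocount of 1), against 2604. With siRNA.1 the number of genes called stayed between 4 and 6 under every alternative and with siRNA.2 between 6 and 7. Of the pathway lists, whose numbers tested are given with each list, 35 genes were called with siRNA.1 (29 to 36 under alternatives), beside 30.2% of all genes. With siRNA.2 it was 33 (27 to 33), beside 30.9%. The share of all genes moved with the setting too. After siRNA.1, 5819 of 12532 passed in the fit of genes averaging 1 FPKM or more and 5274 of 21397 with limma (pseudocount 0.1).

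Libraries with the same replicate number did not deviate together (r between -0.07 and 0.04, none of 9 pairs over 0.1). The labels do not say whether libraries with the same number shared a batch. These r values cannot exclude it, as counting error weakens them. With the number as a replicate block, 5 of the cytokine genes were called with siRNA.1, 7 with siRNA.2 and 3 between the siRNAs, where IL18 lost its call (adjusted p = 0.0652 from edgeR), and no other cytokine gene changed its call. The ratios of antagonist to agonist kept their differences under the block, with an exact sign permutation p of 0.25, the smallest that 3 pairs can give. Depth limits TSLP, IL36G and IL36RN, whose intervals are wide, and IL33, which was not tested.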
